A study of Canis lupus familiaris and Eptesicus fuscus and Equus caballus with 6 samples.

Results

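The 5-prime fragments of 4 tRNAs were followed in the small RNA of dog, big brown bat (Eptesicus fuscus) and horse testis: tRNA-Gly-GCC, tRNA-Glu-CTC, tRNA-Val (anticodons AAC and CAC) and tRNA-Asp (anticodon GTC). Members were all listed sequences of 24 to 32 nt that matched, without a mismatch and on either strand, a stretch of the first 35 nt of one of these tRNAs. They were 118 of 2937574 distinct sequences in dog, 159 of 3971863 in horse and 151 of 635917 in bat. Together they were 205 of 7523874 sequences, and 79 of them were found in all 3 species. How many of all 7523874 sequences were found in all 3 was not counted, so the 79 have no background to be set against. By its title, the series was about piRNAs and the transposable elements they target in mammals of 1 clade that differ in the activity of such elements. Each species gave 1 small RNA library, titled as its piRNA fraction, from frozen testis of an adult, with no treatment named, and 1 mRNA library, not used here. The testis label was therefore not checked against marker genes. The labels do not say how many animals gave the RNA. No value below has a replicate check, so no test between species was made. The intervals given are exact 95% intervals of counting error alone, and reads were PCR copies without molecular identifiers. In whole tissue, fewer cells of a type and less RNA per cell cannot be told apart.

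A tRNA carries an amino acid to the ribosome and reads the codon with the anticodon, which lies in a loop of 7 bases at the middle of the molecule. Ribonucleases such as angiogenin cut in this loop, and the 5-prime product, often called a tiRNA, is a known class of small RNA that rises in stressed cells. Such products of glycine and glutamate tRNAs are also known as abundant small RNAs of mammalian sperm. Testis is otherwise dominated at these lengths by piRNAs, which guide PIWI proteins against transposable elements.

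The first 35 bases of each tRNA were assembled from the listed reads, and every position below is counted from 1 at the 5-prime end of the tRNA. The sequences of 3 of them are shown because the fragment ends are read on them. Capitals mark the anticodon bases that fall inside the 35 nt.
tRNA-Gly-GCC: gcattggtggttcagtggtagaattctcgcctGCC
tRNA-Val, form CAC: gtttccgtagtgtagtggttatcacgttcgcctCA
tRNA-Asp: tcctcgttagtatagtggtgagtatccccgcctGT

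Assembled from each library alone, the 4 sequences had no base that differed between the species. This covered 50 bases for tRNA-Gly-GCC, tRNA-Glu-CTC and tRNA-Asp. For tRNA-Val it covered 43 bases in dog, 42 in horse and 33 in bat. The first 9 bases were required of every library when the assembly began, so a difference there could not be seen. A tRNA promoter element from base 8 was required too, and each sequence gives only the most-read form. The anticodon starts at base 33 in tRNA-Gly-GCC and at base 34 in the other 3, so that the anticodon loop spans bases 31 to 37 or 32 to 38. The windows are related to each other: tRNA-Glu-CTC and tRNA-Asp share 22 of 35 bases at the same positions, and the least alike pair, tRNA-Gly-GCC and tRNA-Val, shares 15. The longest run shared at the same position was 9 nt, while listed sequences have at least 24 nt. Runs shared at different positions were not compared. Each listed sequence was counted for 1 tRNA only.

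The 4 fragments together made up 40867 RPM (reads per 1000000 listed reads) in dog, 12045 in horse and 4515 in bat. Dog and horse shared an order of the 4, and bat had another. In dog the order was tRNA-Gly-GCC, tRNA-Val, tRNA-Glu-CTC and tRNA-Asp, with 89.2%, 7.88%, 2.70% and 0.223% of the reads of the 4. In horse these shares were 77.8%, 12.1%, 8.64% and 1.49%. In bat tRNA-Glu-CTC came first with 48.7%, followed by tRNA-Gly-GCC with 45.3%, tRNA-Val with 3.93% and tRNA-Asp with 2.09%. The closest neighbours in any order were tRNA-Glu-CTC and tRNA-Gly-GCC in bat, at a ratio of 1.08 (1.05 to 1.10). RPM values are relative to all listed reads of 24 to 32 nt, so a higher fragment level and a lower level of the other small RNAs cannot be told apart.

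The glycine tRNA gave the most reads of the 4 in dog and horse. The tRNA-Gly-GCC fragment stood at 36453 RPM in dog (36396 to 36510), 9366 in horse (9334 to 9397) and 2044 in bat (2007 to 2081). Dog was 17.8 times the bat level (17.5 to 18.2) and 3.89 times the horse level (3.88 to 3.91), and horse was 4.58 times the bat level (4.499 to 4.67). The counts behind these levels were 1506554, 335577 and 11914 reads.

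The valine tRNA ranked the species in the same way. The tRNA-Val fragment stood at 3220 RPM in dog (3202 to 3237), 1458 in horse (1446 to 1471) and 177 in bat (167 to 189). The dog level was 18.2 times (17.1 to 19.3) that of bat, close to the ratio of tRNA-Gly-GCC, and 2.21 times (2.19 to 2.23) that of horse. Horse was 8.22 times (7.73 to 8.75) the bat level. The AAC and CAC forms of tRNA-Val were treated as alike up to base 33, so most reads do not tell them apart. Of the reads that reached base 34, 34 of 39 in dog carried the CAC base and 5 the AAC base. In horse these were 70 and 1 of 71 reads, and in bat 3 and 0 of 3.

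The glutamate tRNA went against both. The tRNA-Glu-CTC fragment was at its highest in bat, with 2200 RPM (2162 to 2238), against 1103 in dog (1093 to 1114) and 1041 in horse (1030 to 1051). Bat was thus the species with the highest tRNA-Glu-CTC level and with the lowest tRNA-Gly-GCC and tRNA-Val levels. The dog to bat ratio was 0.502 (0.492 to 0.512) and the horse to bat ratio 0.473 (0.464 to 0.483), while dog and horse stood at a ratio of 1.06 (1.05 to 1.07).

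The aspartate tRNA was the lowest of the 4 in each library. The tRNA-Asp fragment had 180 RPM in horse (175 to 184), 91.0 in dog (88.1 to 93.9) and 94.2 in bat (86.5 to 102). Horse was 1.91 times the bat level (1.75 to 2.09). The dog to horse ratio was 0.506 (0.486 to 0.527). Dog and bat differed by less than counting error, at a ratio of 0.966 (0.883 to 1.06). With 1 mismatch allowed they stood at 149 and 135 RPM, the other way round.

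Single sequences gave a less uniform picture than these sums. Among all sequences found on either strand with at least 2 RPM in both species, 28.4% of 141 were at least 2-fold higher in dog than in bat, and 5 of the 18 member sequences were. In dog against horse it was 18.1% of 332 and 5 of the 26 members, and in horse against bat 28.7% of 178 and 7 of the 25 members. The members' shares were near these backgrounds. They depended on the minimum: with at least 10 reads in both libraries, the minimum tried first, 5 of 26 members (19.2%) against 42 of 419 sequences (10%) were higher in dog than in bat. For dog against horse this gave 7 of 48 (14.6%) against 239 of 1709 (14%), and for horse against bat 8 of 33 (24.2%) against 60 of 501 (12%). The median log2 ratio of the members was -0.33 in dog against bat, -0.89 in dog against horse and -0.58 in horse against bat, beside -0.56, -0.56 and -0.36 over all such sequences. Per tRNA, 3 of 5 tRNA-Gly-GCC sequences were at least 2-fold higher in dog than in bat, against 0 of 7 for tRNA-Glu-CTC, of which 5 were at least 2-fold lower. Over all 141 sequences 44% were lower in dog by that measure. A member had to be above the minimum in both libraries to be counted, so most of the 205 were not.

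The length forms that carried these 3 tRNAs are printed next, with the last base in capitals, because they show where the fragments ended.
tRNA-Gly-GCC, leading form in dog and horse: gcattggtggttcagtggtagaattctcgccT
tRNA-Gly-GCC, leading form in bat: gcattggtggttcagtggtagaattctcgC
tRNA-Val, leading form in dog and horse: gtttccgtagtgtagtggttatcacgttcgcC
tRNA-Val, leading form in bat: gtttccgtagtgtagtggttatcacgttC
tRNA-Asp, leading form in dog: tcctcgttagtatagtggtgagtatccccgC
tRNA-Asp, leading form in bat and horse: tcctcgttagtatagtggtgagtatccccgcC

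Most fragments began at the first base of the tRNA. In dog this held for 99.9% of the tRNA-Gly-GCC reads, 99.8% of the tRNA-Glu-CTC reads, 95.1% of the tRNA-Val reads and 99.4% of the tRNA-Asp reads. In bat the shares were 94.0%, 98.8%, 95.8% and 99.6%. In horse they were 99.3%, 97.8%, 77.7% and 99.6%. The horse tRNA-Val fragment had the lowest of these shares, with 14.7% of its reads starting at base 2 and 6.34% at base 3. The 3-prime ends are given per tRNA below. A read that starts at base 1 can be seen only up to base 32, since no longer sequence is listed.

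The tRNA-Gly-GCC fragment ended at base 32, directly before the anticodon, in 87.5% of the dog reads (87.45 to 87.56%). In horse 46.7% of the reads ended there, and 36.8% ended at base 30, the last base before the anticodon loop. In bat base 30 led with 42.1% (41.2 to 43.0%), followed by base 31 with 34.5% and base 32 with 13.8%. The species ratio therefore depended on the end. For reads ending at base 32, dog was 7.30 times the horse level (7.26 to 7.33) and 113 times the bat level (107 to 118). For reads ending at base 30, dog was below horse, at a ratio of 0.338 (0.334 to 0.342), and only 1.35 times the bat level (1.32 to 1.40). The level of the base 32 form alone was 31897 RPM in dog, 4372 in horse and 283 in bat.

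The tRNA-Val fragment ended at base 32, 2 bases before the anticodon, in 95.2% of the dog reads and 77.0% of the horse reads. In bat only 31.2% (28.4 to 34.2%) ended there and 52.1% (49.0 to 55.2%) ended at base 29, before the loop. Reads ending at base 29 were fewer in dog and horse than in bat, at ratios of 0.141 (0.124 to 0.159) and 0.284 (0.255 to 0.316). Reads ending at base 32 were 55.3 times (49.6 to 61.9) the bat level in dog and 20.3 times (18.2 to 22.7) in horse. The bat shares rest on 1034 reads.

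The few reads that began later show ends past base 32, within the same limit of 32 nt. For tRNA-Val their leading end depended on the start. Of the dog reads, base 33 held 2875 of 3931 that began at base 2 (73.1%), 1610 of 1796 at base 3 (89.6%) and 377 of 434 at base 4 (86.9%), but only 15 of 257 at base 5, of which 240 (93.4%) ended at base 32. In horse, base 33 held 63.0%, 80.2% and 80.6% of the reads of starts 2, 3 and 4 (7696, 3315 and 356 reads), and 24 of 205 of start 5, of which 178 (86.8%) ended at base 32. In bat base 32 led at start 4, with 7 of 13 reads against 1 at base 33. Base 33 is the last base before the tRNA-Val anticodon, the place where most dog tRNA-Gly-GCC reads ended. Whether tRNA-Val fragments that began at base 1 also ended at base 33 was not analysed here, as they would be 33 nt long. For tRNA-Gly-GCC, 72 of 143 dog reads that began at base 4 ended at base 32 and 59 at base 35, the last anticodon base, and in horse 80 and 67 of 183 did. In bat, base 31 led among reads of this start, with 83 of 229, and 9 ended at base 35.

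The tRNA-Glu-CTC fragment had the same leading end in the 3 species. It ended at base 30, 4 bases before the anticodon and before the loop, in 72.3% of the dog reads (71.9 to 72.7%), 80.6% of the horse reads (80.2 to 81.0%) and 56.4% of the bat reads (55.5 to 57.2%). The next end in dog was base 32, with 18.6%, against 5.90% in bat and 6.87% in horse. In bat more reads were short: 23.7% ended at base 29 or before, against 3.65% in dog and 6.43% in horse. Of reads ending at base 30, dog and horse had 0.644 (0.627 to 0.660) and 0.677 (0.660 to 0.695) of the bat level. At base 29 these ratios were 0.139 (0.128 to 0.150) and 0.117 (0.107 to 0.128).

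The tRNA-Asp fragment ended mostly at bases 31 and 32, the last base before the loop and the first one in it. In dog 58.8% of the reads ended at base 31 (57.2 to 60.4%) and 30.96% at base 32. In bat the order was the other way round, with 75.4% at base 32 (71.6 to 79.0%) and 19.5% at base 31. Horse lay between them, with 54.6% at base 32 (53.4 to 55.8%) and 37.7% at base 31. The base 32 form stood at 28.2 RPM in dog, 98.2 in horse and 71.0 in bat, and the base 31 form at 53.5, 67.8 and 18.4. Dog and bat, nearly level in the sum, thus differed in both forms: the dog to bat ratio was 0.397 (0.354 to 0.445) at base 32 and 2.91 (2.40 to 3.57) at base 31.

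These fragments took up much of the longest listed class in dog. Of all dog reads of 32 nt, 52.5% belonged to the 4 tRNAs, 47.5% to tRNA-Gly-GCC and 4.62% to tRNA-Val. In horse the 4 tRNAs held 9.74% of the 32 nt reads and in bat 1.09%. At 30 nt they held 0.646%, 1.39% and 0.731% of the reads in dog, horse and bat. At 24 to 28 nt no class of the 3 libraries held more than 0.358% of such reads.

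Reads that crossed the 35 nt limit were rare for tRNA-Gly-GCC and tRNA-Val. They were more frequent for tRNA-Glu-CTC and, in bat, for tRNA-Asp. No listed read is longer than 32 nt, so reads that crossed the limit could only begin inside the tRNA. At the limit, tRNA-Gly-GCC had 82 dog, 42 bat and 146 horse reads ending at base 35, and 7, 7 and 38 ending at base 36. On the first 50 bases, 3448 dog, 451 bat and 3481 horse reads of tRNA-Glu-CTC ended past base 35, which was 7.03%, 3.40% and 8.54% of its reads there. Of these, 76.8% in dog and 69.9% in horse ended at base 42, and their most frequent start was base 16. In bat base 39 was their most frequent end (41.5%). For tRNA-Gly-GCC such reads were 559 in dog, 1375 in horse and 62 in bat. tRNA-Val had 25, 29 and 0 of them, and tRNA-Asp 13, 19 and 90, which in bat was 14.1% of the tRNA-Asp reads.

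Sequences with 1 mismatch to the assembled tRNAs included further forms, which the exact match left out. A form of these 3 tRNAs is given where it reached 2% of the reads covering the base and 100 reads in a species, and its changed base is in capitals. The names give the base of the assembled tRNA, its position and the base of the form.
tRNA-Gly-GCC T5G: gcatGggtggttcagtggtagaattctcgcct
tRNA-Val T16C: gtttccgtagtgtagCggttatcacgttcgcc
tRNA-Asp G20T: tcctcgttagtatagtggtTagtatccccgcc

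The tRNA-Asp form G20T was common in the 3 libraries, with 38.7% of the reads covering base 20 in dog (37.5 to 39.9%), 35.1% in horse (34.2 to 36.1%) and 30.1% in bat (26.9 to 33.4%). It stood at 57.5, 97.3 and 40.7 RPM. The tRNA-Val form T16C was read in dog, with 17606 reads or 11.6% (11.4 to 11.8%). No read of it was listed in bat or horse, where 3 reads allow a share of 0.278% of 1078 reads and 0.00574% of 52274 reads. The tRNA-Gly-GCC form T5G held 2.68% in dog and 5.15% in bat but 0.0141% in horse, or 1007, 108 and 1.34 RPM. What these forms derive from was not tested.

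The fragments of exact match were listed on 1 strand in each library, with few exceptions. All tRNA-Gly-GCC and tRNA-Val reads were listed in RNA sense in dog and bat and as the reverse complement in horse. All tRNA-Glu-CTC reads were listed as the reverse complement in dog and bat and in RNA sense in horse. tRNA-Asp was listed as the reverse complement in the 3 libraries, except for 17 of 3760 dog reads and 1 of 549 bat reads. The mismatch forms could be listed the other way: 41621 of 41628 T5G reads of tRNA-Gly-GCC in dog were reverse complements, and all 2378 G20T reads of tRNA-Asp in dog were in RNA sense. Of tRNA-Gly-GCC reads that reached base 33, 55 of 696 in dog and 27 of 1563 in horse carried C there, the base of the CCC anticodon, and 0 of 309 in bat did, where 3 reads would be 0.971%. Reads that end before base 33 do not tell these isoacceptors apart.

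Compared with 10 other tRNAs found by the same procedure, the 4 members held 95.8% of the 5-prime fragment reads of all 14 in dog, 80.5% in horse and 95.2% in bat. Each tRNA here stands for the sequence assembled from its start motif, so forms that begin with other bases were not sought. tRNA-Gly-GCC ranked 1 in horse and dog and 2 in bat, while tRNA-Asp ranked 7 of 14 in the former pair and 4 of 14 in bat. In horse the fragment of tRNA-His-GTG, at 1758 RPM (1744 to 1772), stood above those of tRNA-Val and tRNA-Glu-CTC. It was at 578 in dog and 46.3 in bat. The fragment of tRNA-Glu-TTC, which also carries glutamate, was at 926 in dog, 494 in horse and 13.4 in bat. This assembled form stood 69.2 times (55.5 to 87.6) higher in dog than in bat, whereas the tRNA-Glu-CTC fragment stood lower in dog. The bat level rests on 78 reads, and other forms of tRNA-Glu-TTC were not sought. The sequences assembled for the 2 other glycine tRNAs were both highest in bat. That of tRNA-Gly-CCC was at 59.2 RPM there, 2.37 in dog and 3.96 in horse, and that of tRNA-Gly-TCC at 36.5, 2.44 and 1.45. Reads that begin as tRNA-Gly-GCC but carry the CCC base at base 33 (55 in dog, 27 in horse, 0 in bat) are not in these levels. The level of all tRNA-Gly-CCC fragments was thus not measured.

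The order of the fragments did not follow the number of annotated genes in dog. RefSeq names 51 genes for tRNA-Gly-GCC, 59 for tRNA-Glu-CTC, 16 for tRNA-Val (6 AAC and 10 CAC) and 43 for tRNA-Asp in the dog assembly UU_Cfam_GSD_1.0. Per annotated gene the dog library held 715 RPM of tRNA-Gly-GCC, 201 of tRNA-Val, 18.7 of tRNA-Glu-CTC and 2.12 of tRNA-Asp. The reads are exact matches to the assembled sequences, but the genes are all those named. The tRNA-Asp value leaves out the G20T form, at 57.5 RPM in dog. The tRNA-Gly-GCC value can include reads with the CCC anticodon, whose genes are not counted. A read that matches several gene copies has no single place in the genome, and no coordinates are given because the assembly is not the one named for the files.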

How the data were processed

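Small RNA of 3 testes was read single-end at 50 nt, per the labels' protocols. Per the submitters' processing notes the tools were Bowtie and RSEM (no versions) and the genome build was CanFam3.1. How reads were trimmed and chosen by length is not given in the sources used here. The deposited files hold raw read counts per sequence, of 24 to 32 nt only: 41328689 reads in dog, 35830283 in horse and 5828928 in bat. A total is thus no full library depth. In these libraries 3 reads equal 0.0726, 0.0837 and 0.515 RPM.

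Rows with the same sequence were summed (23684, 17284 and 447 rows). No tRNA sequence was given, so each was assembled: the most-read sequence on either strand that began with a 9 nt start motif and carried an A box (the tRNA promoter element) from base 8 was extended with the most-read next base among reads overlapping by at least 14 nt, up to 50 nt. Each anticodon was then found at its place, except in tRNA-iMet-CAT. The AAC form of tRNA-Val was made by changing the first anticodon base. The motifs, known from these tRNAs, were GCATTGGTG (Gly-GCC), GTTTCCGTA (Val) and TCCTCGTTA (Asp). The sequence, motif and mismatch forms of tRNA-Glu-CTC are not reported here. Those of the comparison tRNAs were GCCCGGCTA (Lys-CTT), GCCTGGATA (Lys-TTT), GCCGTGATC (His-GTG), AGCAGAGTG (iMet-CAT), GCGCCGCTG (Gly-CCC), GCGTTGGTG (Gly-TCC), TCCCATATG (Glu-TTC), GGTTCCATA (Val-TAC), GGGGGTATA (Cys-GCA) and GTCAGGATG (Leu-CAG).

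Intervals of shares are Clopper-Pearson, and those of ratios exact conditional binomial (scipy 1.17.1, Python 3.11.15). Sequences named were the most-read of each tRNA and species and those with at least 10% of its reads. Assembly and matching were tested on simulated data of random sequences around an A box, each listed on 1 strand. These held no related tRNAs, isoacceptors or mismatch forms, so the test did not cover them. The alternatives were reads of 26 to 32 nt, starts at base 1, 1 mismatch, RNA sense only, and a total without the 10 most-read sequences. The members and lists were chosen with earlier results of these data known. The 2-fold background, the mismatch forms with their thresholds and the reads past base 35 were added after seeing the data. The background's minimum of 10 reads was replaced by 2 RPM after its values were seen, because equal reads are a higher RPM in the shallower bat library; both are given.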

Additional observations from a re-analysis of the deposited data

How the results depend on the processing

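The RPM values were recomputed under 5 alternatives. With 26 to 32 nt reads only, tRNA-Gly-GCC was at 37169 in dog, 9770 in horse and 2118 in bat, tRNA-Glu-CTC at 1124, 1081 and 2305, tRNA-Val at 3282 in dog and 1517 in horse, and tRNA-Asp at 187 in horse. With starts at base 1 only, tRNA-Gly-GCC was at 1922 in bat and 9304 in horse, tRNA-Glu-CTC at 1018 in horse, and tRNA-Val at 3063 in dog and 1133 in horse. With up to 1 mismatch, tRNA-Gly-GCC was at 37546, 2157 and 9500 in dog, bat and horse, tRNA-Glu-CTC at 2251 in bat, tRNA-Val at 3671 in dog, and tRNA-Asp at 149, 135 and 277, so that dog then stood above bat. Without the 10 most-read sequences in the total, tRNA-Gly-GCC was at 39999, 2301 and 9800, tRNA-Glu-CTC at 1211, 2476 and 1089, tRNA-Val at 3533, 199.7 and 1526, and tRNA-Asp at 99.8, 106 and 188. A member left out of this total was still counted for its tRNA. In dog that was so for the leading tRNA-Gly-GCC form, at 31878 RPM, which by itself raises the dog values. With reads listed in RNA sense only, 4 values fell to 0 besides tRNA-Asp in horse (also 0): tRNA-Gly-GCC and tRNA-Val in horse and tRNA-Glu-CTC in dog and bat. tRNA-Asp then stood at 0.411 in dog and 0.172 in bat, and its most frequent end was base 33 in dog (17 reads) and base 34 in bat (1 read). In the other settings the most frequent end of each tRNA was the same in each library. Every species had 1 library, so no replicate could be left out. No paired analysis was possible because each group held 1 library. The list ends at 32 nt, so fragments of 33 nt or longer that began at base 1, and the level of each tRNA with them, were not analysed here. Bat, with the fewest reads, had the widest RPM intervals relative to the value for each tRNA.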
